A study of Mus musculus with 4 samples.

Results

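NRF2, the transcription factor encoded by Nfe2l2, its inhibitor Keap1 and 8 enzyme genes of the antioxidant defence were followed in liver RNA of mice with diet-induced obesity (DIO) that were given galanin-like peptide (GALP, a hypothalamic neuropeptide). The members are the 10 genes Nfe2l2, Keap1, Gclc, Gclm, Nqo1, Hmox1, Txnrd1, Srxn1, Cat and Sod2, which were chosen by name, and all non-control probes that carry 1 of these names on the array were used. They came to 16 probes of the 41174 probes on the array. Every one of the 16 probes was well above background in all 8 channels (4 arrays with 2 dyes each), so no member was lost to a filter on low signal.

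Male C57BL/6 mice, 8 weeks old when purchased (the characteristics field gives the strain as C57BL/6J), ate a high-fat diet for 14 weeks, and those weighing at least 40 g were used. Mice then received porcine GALP (1-60), given as 1 nmol in saline with 5% α-cyclodextrin, or saline, in 2 µL into the nose once daily for 11 days, with the diet continued. The labels give saline alone for the controls, so GALP and α-cyclodextrin cannot be told apart where the controls did not receive it. Liver RNA of 4 GALP mice with greater weight loss made 1 pool, that of 4 GALP mice with less weight loss made another, and that of 8 saline mice made the control pool, which the paper describes as a single pool although the labels attach a weight loss group to it. The GALP pools were formed by outcome, and a pool hides the spread between its mice. Each GALP pool was set against the control pool on 2 Agilent arrays of 1 slide with the Cy3 and Cy5 dyes exchanged, so the 4 arrays carry 2 GALP samples. All values below are GALP over control, and a mean ± SD is over n = 2 pools. The SD is taken after averaging the 2 dye orientations of a pool, so it leaves out their difference. Both pools share the control, so any deviation of the control pool enters every ratio and similar values in the pools are not independent evidence.

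In the resting cell KEAP1 holds NRF2 in the cytoplasm and marks it for degradation. Oxidants and electrophiles modify KEAP1, NRF2 then accumulates in the nucleus and, with a small MAF protein, binds antioxidant response elements near genes for glutathione synthesis, quinone reduction, heme breakdown and thioredoxin recycling. In the liver these enzymes handle reactive products of fat oxidation and drug metabolism. Catalase and the mitochondrial superoxide dismutase SOD2 belong to the same defence but are also set by other regulators.

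The gene starts were read first, to show which members hold the letters of an antioxidant response element close to their start site. The windows are RefSeq sequences of GRCm38.p6 (250 bases before to 50 bases after a start site), and 8 of the 10 members had 1 or more of them, in 10 windows. Gclc and Hmox1 were not among the tabulated windows. The core letters TGACNNNGC, searched on both strands, were present in the windows of 4 of these 8 members, which compares with 14.0% of the 27025 genes in the table and 12.4% of all 32851 windows. The lines give 30 bases in the direction of the gene with the match in capitals, and a match that opens with GC and ends with TCA lies on the opposite strand.
Nfe2l2, chr2:75704884-75704913, gene on the minus strand: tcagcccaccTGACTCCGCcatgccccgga
Gclm, chr3:122245413-122245442, plus strand: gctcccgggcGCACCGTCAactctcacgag
Txnrd1, chr10:82859104-82859133, plus strand: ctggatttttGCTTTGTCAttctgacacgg
Srxn1, chr2:152105542-152105571, plus strand: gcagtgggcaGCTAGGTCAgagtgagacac

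The matches lay 236 bases before the start site in Nfe2l2, 130 before it in Gclm and 88 before it in Txnrd1 (the second of its 3 windows), and 32 bases after it in Srxn1. With the looser letters TGANNNNGC, which include the core, 5 of the 8 members had a match, as did 45.0% of all genes and 41.3% of all windows. Txnrd1 had 3 windows and the other 7 members 1 each. Keap1 was the member added, 57 bases before its start. Srxn1 had 4 looser matches, more than any other member, and the one 41 bases before its start site reads as follows.
Srxn1, chr2:152105469-152105498, plus strand: aaattcacccTGAGTCAGCggccgggcgcg

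Cat, Nqo1 and Sod2 held neither pattern in these windows. A match describes letters only, and elements farther from the start were not searched.

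A probe was called by the rule of the study's methods where each pool showed a fold over 1.5, or each a fold under 0.75, with the same direction and a p-value under 0.01 from the scanner software's error model on all 4 arrays. The methods leave the number of arrays for the p-value unstated, and a strict reading was used here. Of the 16 member probes 0 were called. Over the 41037 probes with a value on all 4 arrays, 0.0585% were called higher and 0.132% lower. With limma (moderated test of the pool ratios against 0, Benjamini-Hochberg adjustment) 0 of the 16 member probes passed an adjusted p of 0.05. Of the 41037 probes 0, or 0%, passed, and the adjusted p of the members lay between 0.37 and 1. The smallest adjusted p over all probes was also 0.37, and Tff1, at a mean log2 ratio of -3.63, had that value. With 2 pool ratios per probe the test passed no probe, so it does not show that the members were unchanged. At an unadjusted limma p under 0.05 there were 3 member probes, all lower, namely Gclc, Keap1 and the dimmer Gclm probe. The background was 4.99% of all probes higher and 6.6% lower at that p, and most of those probes lacked signal as defined below.

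Direction was then compared across arrays. Hmox1 was the 1 member probe higher on all 4 arrays, and 4 were lower on all 4 (Gclc, Keap1, Txnrd1 and the dimmest Nfe2l2 probe), which left 11 probes with mixed signs. Among the 15724 probes with signal, meaning that on each array the dye signal of 1 or both extracts was well above background, 11.4% were higher and 15.7% lower on all 4 arrays. The median log2 ratio of the 10 genes, each taken by its brightest probe, was -0.07 (-0.06 in the greater and -0.10 in the less weight loss pool), beside -0.02 for all probes with signal.

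**Figure D1:**
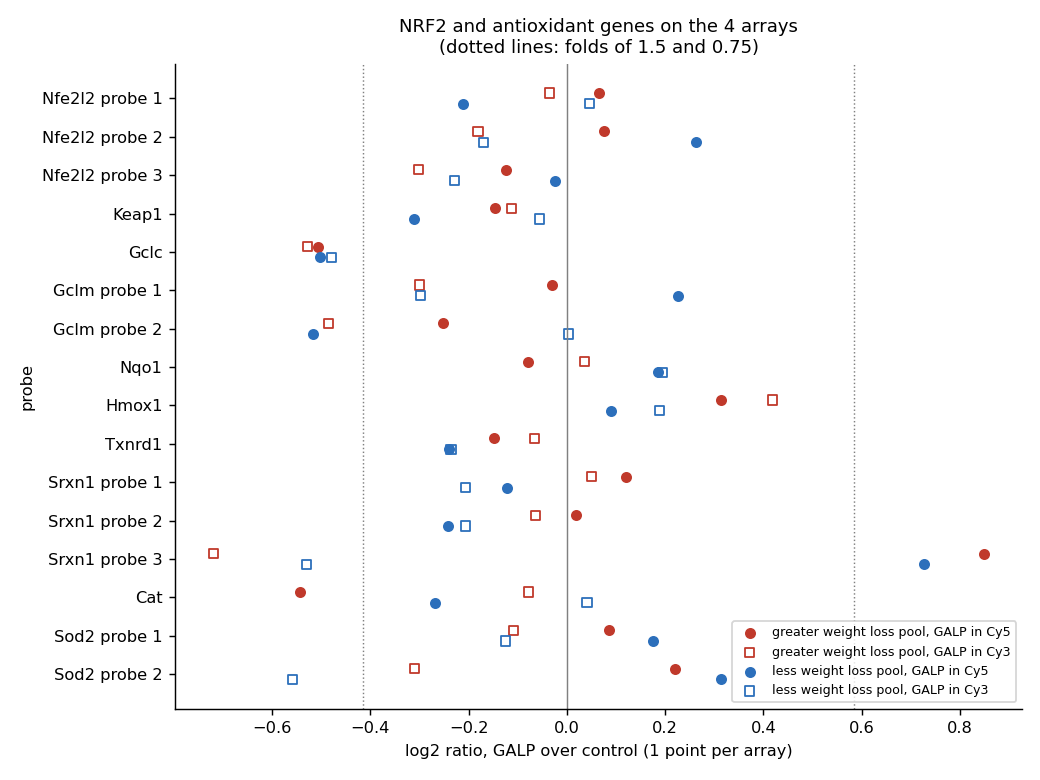
Log2 ratio of GALP over control (x axis) for the 16 probes of the 10 genes (y axis), with 1 point per array, red for the greater and blue for the less weight loss pool, filled circles for GALP in Cy5 and open squares for GALP in Cy3. The 4 points of Gclc lie together at about -0.50, beyond the dotted line for a fold of 0.75, whereas Srxn1 probe 3 splits by dye from 0.85 to -0.72.

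The 4 arrays did not carry equal information. Over the probes with signal the dye-exchanged arrays of the greater weight loss pool correlated at r = 0.48 across probes and those of the less weight loss pool at 0.24, and over all 41037 probes, most of them without signal, at -0.14 and -0.15. All 8 hepatocyte markers had signal, 3 were higher and 1 lower on all 4 arrays, 4 had mixed signs, and their median log2 ratio was 0.03. Alb (albumin) was at 0.05 ± 0.09 and Tat (tyrosine aminotransferase), the lower one, at -0.38 ± 0.26. Markers listed for other organs also differed. The median log2 ratio of 5 pancreas markers was -3.72 in the greater and 0.84 in the less weight loss pool, that of 5 skeletal muscle markers was 0.34 and -2.20, and the stomach genes Gkn2 (-4.80 ± 0.41) and Tff1 (-3.63 ± 0.01) were called lower. The other stomach markers of the list (Gkn1, Muc5ac and Atp4a) did not reach signal on every array. The source of the organ markers and their part in the values of the antioxidant genes were not tested.

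Among the regulators, the brightest Nfe2l2 probe lay within the spread of the pools, and Keap1 was slightly below the control level. Nfe2l2 has 3 probes on chromosome 2 (mm9, minus strand). The brightest, at chr2:75513771-75513830, gave log2 ratios of 0.07 and -0.03 on the arrays of the greater and -0.21 and 0.05 on those of the less weight loss pool, with GALP in Cy5 named first here and below. Its mean was -0.03 ± 0.07. With normexp and loess it was lower on all 4 arrays (-0.16, -0.09, -0.21 and -0.07, mean -0.13, limma unadjusted p = 0.0062, adjusted p = 0.16). The second probe, at chr2:75513917-75513976, had a mean of -0.003 ± 0.07, and its sign followed the dye (0.07, -0.18, 0.26 and -0.17).

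Nfe2l2 probe 3, at chr2:75529947-75530006, was assigned to a non-coding transcript record of the gene in RefSeq and was the dimmest, with a mean processed signal of 240.0 against 4225 for the brightest. It was lower on every array (-0.12, -0.30, -0.02 and -0.23, mean -0.17 ± 0.06, limma adjusted p = 0.49), and its mean was -0.08 with normexp and loess. The means of the 3 probes of the gene were below 0 (-0.03, -0.003 and -0.17). In the deposited ratios only probe 3 had the same sign on all 4 arrays. Keap1, the adaptor that presents NRF2 to a ubiquitin ligase, gave -0.15 and -0.11 in the greater and -0.31 and -0.06 in the less weight loss pool (mean -0.16 ± 0.04, limma unadjusted p = 0.045, adjusted p = 0.42). Its 60-base probe covers 441 bases of the genome (chr9:21035292-21035732, minus strand), so it crosses a splice junction. With the median of the probes with signal set to 0 on each array, Keap1 was no longer lower on all 4, and with normexp and loess it was lower on all 4 with a mean of -0.08.

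Glutathione synthesis gave the mean log2 ratio of largest size among the 16 probes. Gclc encodes the catalytic subunit and Gclm the modifier subunit of glutamate-cysteine ligase, the rate-limiting enzyme of glutathione synthesis. Gclc is read by 1 bright probe at chr9:77641296-77641355 (mm9, plus strand), whose first 30 of 60 bases are shown because the result turns on this single probe.
Gclc probe, bases 1 to 30: agtgaactggcttgtacattttgaattctt

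In the control channels Gclc had processed signals of 16288 and 13789 on the arrays of the greater and 16743 and 16180 on those of the less weight loss pool. The GALP channels of the same arrays gave 11473, 9565, 11817 and 11611. Every GALP signal was below every control signal, a separation that 2.51% of the probes with signal showed in this direction and 2.48% in the other. The log2 ratios were -0.51, -0.53, -0.50 and -0.48, and the mean of -0.50 ± 0.02 corresponds to 0.705-fold.

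The range of 0.05 over the 4 arrays was small. It compares with a median range of 0.38 over the probes with signal and of 0.25 over the 960 probes with a mean processed signal above 10000, of which 0.938% had a narrower range than Gclc. Gclc met the fold and direction parts of the rule in both pools and missed it on the software's p-values, which were 0.016, 0.012, 0.016 and 0.022. Without the p-value, 0.877% of all probes were called lower and 0.375% higher, and Gclc was the 1 member among them. The mean log2 ratio of 2.33% of the probes with signal was as low or lower. By limma its unadjusted p was 0.0036 and its adjusted p 0.37. The adjusted p was 0.032 with normexp background correction and loess, 0.025 with the 4 arrays in a random block, 0.13 over the probes with signal alone, and 0.46 with the median of those probes set to 0.

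The modifier subunit had weaker signals. The brighter Gclm probe (chr3:121970418-121970477, plus strand) had mean signals of 285.3 and ratios of -0.03 and -0.30 in the greater and 0.23 and -0.30 in the less weight loss pool, with a mean of -0.10 ± 0.09, which was -0.02 with normexp and loess. The dimmer probe (mean signal 105.3), which spans 2636 bases of the genome from chr3:121962174-121964809 and so crosses a junction, gave -0.25, -0.49, -0.52 and 0.00 (mean -0.31 ± 0.08, limma adjusted p = 0.42). With normexp and loess it was lower on all 4 arrays but by less, with a mean of -0.08. In the deposited ratios both probes were below the control in the mean of each pool, but their arrays ranged over 0.53 and 0.52, about as wide as the Gclc effect itself.

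For quinone and heme detoxification no test was passed, and only Hmox1 of the pair had 1 sign on all 4 arrays. Hmox1, heme oxygenase 1, opens the heme ring to biliverdin, iron and carbon monoxide. It is abundant in macrophages that clear red cells, and in bulk liver RNA more cells of a type and more RNA per cell cannot be told apart. Its probe lies at chr8:77624207-77624266 (mm9, plus strand), and its first bases are shown as those behind the single member higher on every array.
Hmox1 probe, bases 1 to 30: atggttgtaagcatccatgttgactgacca

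The control signals of Hmox1 were 2155, 1760, 2056 and 1767, and the GALP signals 2678, 2352, 2187 and 2014, so the groups overlapped across arrays although each GALP signal exceeded the control of its own array. The log2 ratios of 0.31 and 0.42 in the greater exceeded those of 0.09 and 0.19 in the less weight loss pool. The mean was 0.25 ± 0.16 (limma adjusted p = 0.63). With normexp and loess the arrays gave 0.20, 0.39, 0.19 and -0.09, so 1 array changed sign.

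Kupffer cell markers are given beside Hmox1. All 8 markers of the list had signal, and 1 of the 8 was called. On all 4 arrays 5 were higher and 0 lower, 3 had mixed signs, and the median log2 ratio was 0.23. Among all probes with signal 11.4% were higher and 15.7% lower on all 4 arrays, and the rule called 0.0585% of all probes higher. The scavenger receptor Marco (0.87 ± 0.25) was called by the rule, and the pan-macrophage genes Cd68 and Adgre1 were at 0.55 ± 0.17 and 0.43 ± 0.01. Csf1r was at 0.27 ± 0.09, C1qa at 0.19 ± 0.10 and Cd5l at 0.14 ± 0.02. Of these C1qa and Cd5l were higher on all 4 arrays and Csf1r had mixed signs. Clec4f and Vsig4 also had mixed signs, at -0.001 ± 0.16 and -0.07 ± 0.26. Summed over the 8 markers, processed signals ranged from 25192 to 28531 in the control channels, from 28335 to 33939 in the greater and from 32443 to 34742 in the less weight loss pool. The erythroid list had 3 genes with signal, each lower on all 4 arrays (median -0.15). Of 5 stellate cell markers with signal 4 were higher and 0 lower on all 4 arrays (median 0.21). Sinusoidal endothelial markers gave 2 higher and 1 lower of 6 (median 0.10), and bile duct markers 0 higher and 1 lower of 4 (median -0.12). The part of any of these cell types in the Hmox1 value was not tested.

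Nqo1 reduces quinones by a 2-electron transfer that avoids the reactive semiquinone, and it is a common readout of NRF2. It showed -0.08 and 0.04 in the greater and 0.19 and 0.20 in the less weight loss pool (chr8:109912440-109912499, minus strand). The mean of 0.08 ± 0.15 was within the spread of the pools, and it was -0.06 with normexp and loess.

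**Figure D2:**
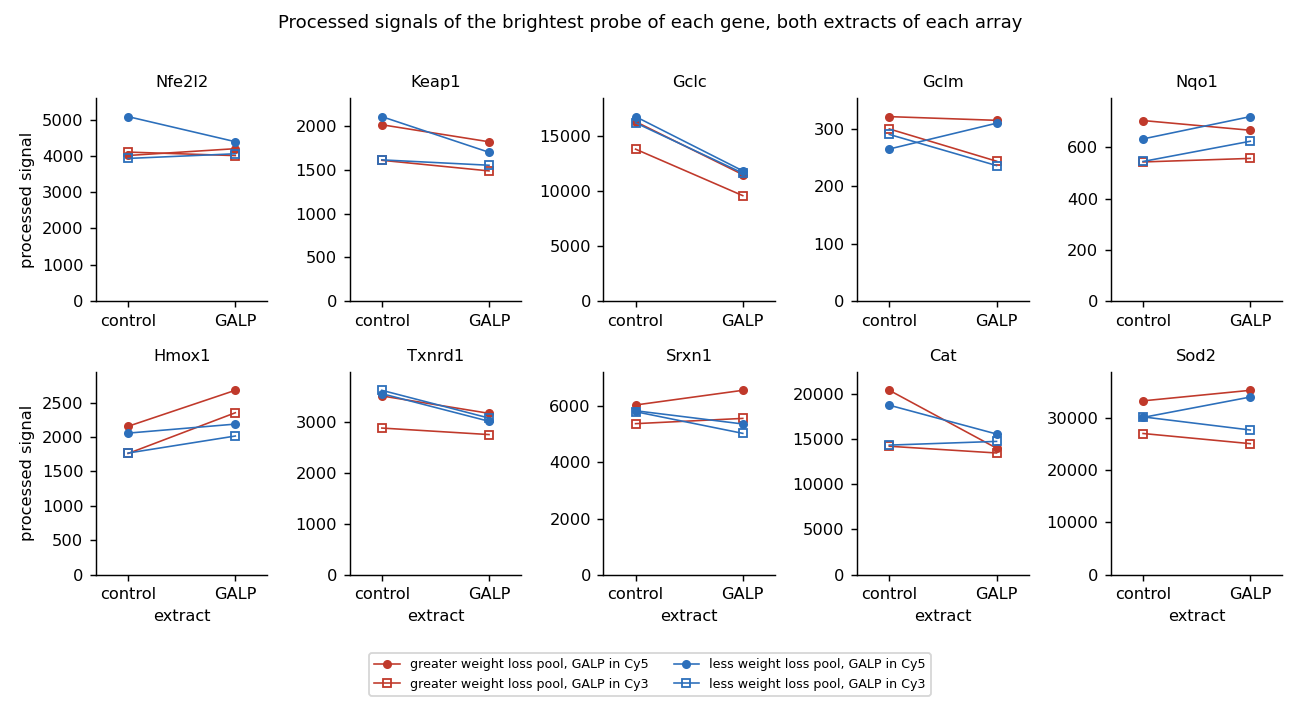
Processed signal (y axis, from 0) of the brightest probe of each of the 10 genes in the control and GALP extracts (x axis), with 1 line per array, coloured by pool and with filled circles for GALP in Cy5. All 4 lines of Gclc end between 9565 and 11817, below every control signal, and the lines of Cat start apart, from 14176 to 20357 in the control.

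In the thioredoxin branch the values were small. Txnrd1, the cytosolic reductase that recycles thioredoxin with NADPH, was lower on each array, at -0.15 and -0.07 in the greater and -0.24 and -0.24 in the less weight loss pool (chr10:82360230-82360289, plus strand). The mean of -0.17 ± 0.09 had a limma adjusted p of 0.58, and Txnrd1 stayed lower on all 4 arrays with normexp and loess and with the probes with signal centred.

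Srxn1, sulfiredoxin, restores peroxiredoxins that were oxidised too far. Its brightest probe (chr2:151936919-151936978, plus strand) gave 0.12 and 0.05 in the greater and -0.12 and -0.21 in the less weight loss pool, so the pools lay on opposite sides of the control by 0.25 in all, with a mean of -0.04 ± 0.18. Probe 2 (chr2:151935185-151935244) gave 0.02, -0.06, -0.24 and -0.21. Probe 3 (chr2:151935232-151935291) overlaps it, and the bases they share, chr2:151935232-151935244, are in capitals below. These 2 probes are set side by side because they read neighbouring bases of the same transcript and differ in their behaviour.
Srxn1 probe 2, bases 31 to 60: ctttatgatagcactatATGAACTATGTAC
Srxn1 probe 3, bases 1 to 30: ATGAACTATGTACtaggaagtaaaggaaaa

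Probe 3 gave 0.85 and -0.72 in the greater and 0.73 and -0.53 in the less weight loss pool. Its sign followed the dye, not the pool, and the average over the dyes hid this, since the pool means were 0.07 and 0.10. Its mean signal was 77.4, the lowest of the 16 probes, against 164.6 for the second and 5705 for the first.

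For this reason the gap between the dye orientations was read for every probe, as the mean log2 ratio with GALP in Cy5 minus that with GALP in Cy3. Srxn1 probe 3 had a gap of 1.41, whose size exceeded that of 98.6% of the 8267 probes with signal under 500. The median size of the gap was 0.26 among those dim probes, 0.14 between 500 and 5000 and 0.13 above 5000. Of the 16 member probes 6 lay under 500, and their gaps ranged in size from 0.02 to 1.41. The 4 above 5000 ranged from 0.00 (Gclc) to 0.39 (Cat).

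**Figure D3:**
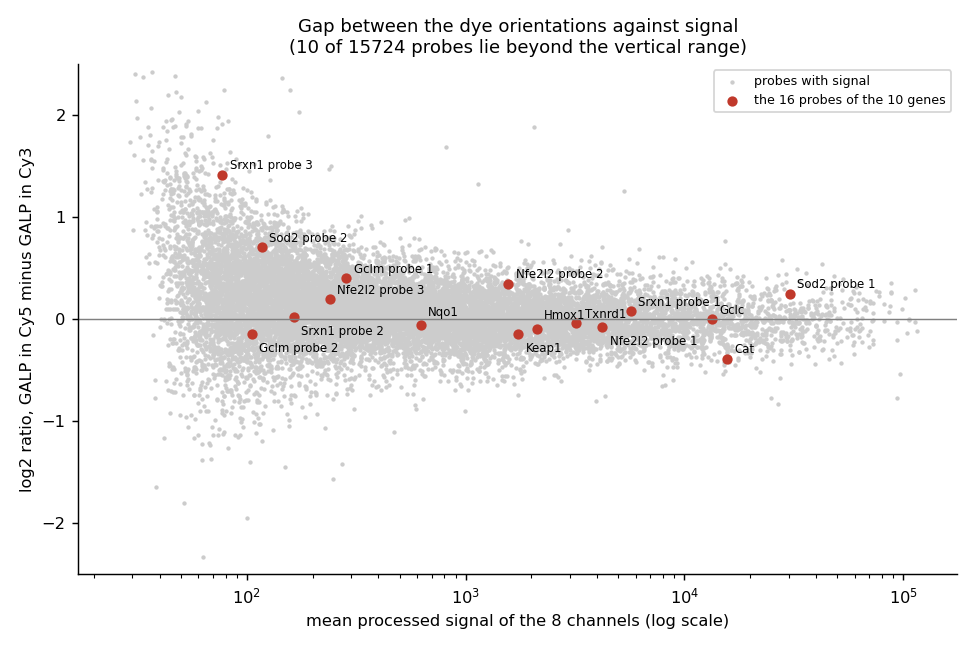
Gap in log2 ratio between the dye orientations, GALP in Cy5 minus GALP in Cy3 (y axis), against the mean processed signal of the 8 channels (x axis, log scale), for the 15724 probes with signal in grey and the 16 member probes in red. Gclc sits at 0.00 at a signal of 13433, while Srxn1 probe 3 reaches 1.41 and the second Sod2 probe 0.70 at the dim end. Beyond the vertical range lie 10 probes.

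For the enzymes that remove superoxide and peroxide the signs or sizes differed between arrays. Cat encodes catalase, the peroxisomal enzyme that splits hydrogen peroxide. With GALP in Cy5 it gave -0.54 in the greater and -0.27 in the less weight loss pool, and with GALP in Cy3 -0.08 and 0.04 (chr2:103294660-103294719, minus strand). The first of these had a software p-value of 0.0096, one of 2 member values of 64 under 0.01, the other being the first array of Srxn1 probe 3. The mean of -0.21 ± 0.14 (limma adjusted p = 0.64) was -0.41 with GALP in Cy5 alone and -0.02 with GALP in Cy3 alone, so the dye orientation decided its size.

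Sod2 turns superoxide into hydrogen peroxide in mitochondria and was the brightest member, with a mean signal of 30309. Its first probe (chr17:13208074-13208133, plus strand) gave 0.08 and -0.11 in the greater and 0.18 and -0.13 in the less weight loss pool, with a mean of 0.01 ± 0.03. The second (chr17:13212055-13212114), with a mean signal of 117.3, gave 0.22, -0.31, 0.31 and -0.56. Both followed the dye. Ordered by the mean log2 ratio of the brightest probe, the genes ran from Gclc (-0.50) through Cat (-0.21), Txnrd1 (-0.17), Keap1 (-0.16), Gclm (-0.10), Srxn1 (-0.04), Nfe2l2 (-0.03), Sod2 (0.01) and Nqo1 (0.08) to Hmox1 (0.25). Apart from Gclc and Cat, neighbours in that order differed by no more than 0.17, and the SDs of single genes reached 0.18.

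The wider pathway was read from 7 lists of 120 genes, of which 107 had a probe with signal. Of these 0 were called by the rule, beside 0.0585% of all probes called higher and 0.132% lower. By limma 0 passed after adjustment (smallest adjusted p 0.37, as over all probes). An unadjusted limma p under 0.05 was reached by 14 genes with a higher and 12 with a lower mean. The shares of all probes at that p were 4.99% higher and 6.6% lower, but most of those probes had no signal, so the sets are unlike. On all 4 arrays 22 genes were higher and 15 lower, and 70 were mixed. Among the probes with signal 11.4% were higher and 15.7% lower on all 4 arrays, shares that also stand beside each list below. The lists take the brightest probe of a gene, whereas these shares count every probe. The median log2 ratio of the 107 genes was 0.03, beside -0.02 for all probes with signal.

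Proteins that control NRF2 gave 3 genes higher and 1 lower on all 4 arrays among 12 with signal (median 0.03). Maff, a small MAF partner, was at 0.41 ± 0.10 and Syvn1, a ubiquitin ligase of the endoplasmic reticulum, at 0.32 ± 0.04. At the other end stood the mitochondrial phosphatase Pgam5 at -0.15 ± 0.13 and the kinase Gsk3b at -0.15 ± 0.03. Gsk3b, at a mean signal of 60.3, gave -0.003 and -0.35 in the greater and 0.01 and -0.27 in the less weight loss pool.

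Other targets of NRF2 formed the longest list, with 31 genes with signal, 7 higher and 3 lower on all 4 arrays, and a median of 0.06. The glutathione S-transferase Gsta1 led at 0.68 ± 0.13, followed by the cytochrome P450 Cyp2a5 at 0.64 ± 0.08. Read by the brightest probe of each gene, Gsta1 alone among the genes with signal met fold and direction without the p-value. Gsta1 gave 0.70, 0.84, 0.49 and 0.69 on the arrays, the less weight loss pool being the lower. Near-identical relatives may share signal with both probes (Gsta2 with Gsta1, and Cyp2a4 with Cyp2a5), so their identity is uncertain. At the low end were malic enzyme Me1, a source of NADPH that also serves fat synthesis, at -0.41 ± 0.07 and Ugdh, which makes UDP-glucuronate, at -0.19 ± 0.05. The second Me1 probe gave -0.61 ± 0.03. That probe also met fold and direction without the p-value, at -0.58 in the greater and -0.63 in the less weight loss pool. The cystine transporter Slc7a11 and Gpx2 did not reach signal on every array.

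Glutathione enzymes had 3 genes higher and 2 lower on all 4 arrays of 17 with signal (median -0.03). Chac1, which degrades glutathione, was at 0.34 ± 0.27 and the oxoprolinase Oplah at 0.17 ± 0.06. Glo1, which clears methylglyoxal with glutathione, was at -0.34 ± 0.03 (second probe -0.19 ± 0.01) and Ggct, a step of glutathione breakdown, at -0.21 ± 0.01. Read by the brightest probe, glutathione synthase Gss and glutathione reductase Gsr were among the 12 genes with mixed signs. Gsr probes 2 and 3 were lower on all 4 arrays, at -0.14 ± 0.05 and -0.25 ± 0.01.

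Thioredoxin and peroxiredoxin genes had 2 higher and 5 lower on all 4 arrays of 19 (median 0.01). The thioredoxin inhibitor Txnip was at 0.46 ± 0.07 with 0.44 and 0.57 in the greater and 0.48 and 0.34 in the less weight loss pool, and its second probe was at 0.39 ± 0.08. Selenow, a small selenoprotein, was at 0.11 ± 0.00 but had mixed signs on the arrays (0.30 and -0.09, then 0.11 and 0.10). Txnrd3, the reductase related to Txnrd1, was at -0.23 ± 0.05 and the methionine sulfoxide reductase Msrb2 at -0.16 ± 0.06.

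Superoxide and peroxide genes with their regulators had 2 higher and 1 lower on all 4 arrays of 10 (median 0.01). The transcription factor Foxo1 was at 0.35 ± 0.08, with 0.32 ± 0.11 at its second probe, and its coactivator Ppargc1a was at -0.28 ± 0.01. The arrays of Ppargc1a lay farther apart, at -0.43 and -0.11 in the greater and -0.05 and -0.53 in the less weight loss pool. The extracellular dismutase Sod3 had the highest mean, 0.55 ± 0.28, but followed the dye (1.35 and -0.64, then 1.54 and -0.04) at a mean signal of 32.4. The cytosolic dismutase Sod1 was at -0.08 ± 0.06.

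Heme and iron genes had 2 higher and 1 lower on all 4 arrays of 10 (median 0.04). Alas1, the first enzyme of heme synthesis, was at 0.57 ± 0.20, with 0.38 and 0.49 in the greater and 0.73 and 0.69 in the less weight loss pool, and the second probe gave 0.56 ± 0.14. The hemoglobin-binding protein Hp was at 0.18 ± 0.01. Hmox2, the constitutive heme oxygenase, was at -0.09 ± 0.00 where Hmox1 was at 0.25, and the transferrin receptor Tfrc was at -0.31 ± 0.38, since the greater weight loss pool gave -0.66 and -0.49 and the less weight loss pool 0.01 and -0.08.

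Sources of oxidants had 3 higher and 2 lower on all 4 arrays of 8 with signal (median 0.07). Cyba and Ncf4, both of the phagocyte NADPH oxidase, were at 0.40 ± 0.10 and 0.36 ± 0.19, and both are expressed by the macrophages whose markers are given above. Hao1, the peroxisomal glycolate oxidase of hepatocytes, was at -0.24 ± 0.00 and the oxidase Nox4 at -0.16 ± 0.04. The dimmer second Nox4 probe gave -0.33 in the greater and 0.20 in the less weight loss pool (mean -0.06 ± 0.37). Hao1 gave -0.45 and -0.03 in the greater and -0.41 and -0.07 in the less weight loss pool. The larger sizes were those with GALP in Cy5. Cybb and Ncf1 did not reach signal on every array.

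**Figure D4:**
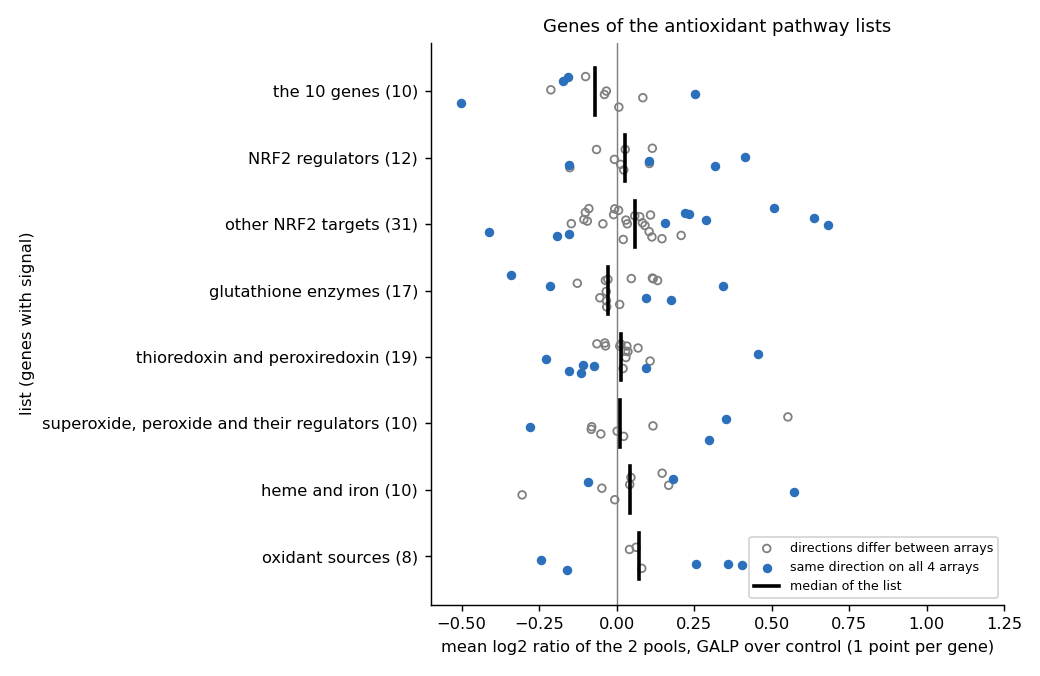
Mean log2 ratio of the 2 pools, GALP over control (x axis), for the genes with signal of the 10-gene set and of the 7 pathway lists (y axis, number of genes in brackets), with filled points for genes in the same direction on all 4 arrays and a bar at the median of each list. The medians lie between -0.07 and 0.07, Gclc is the lowest point of any list at -0.50 and Gsta1 the highest at 0.68.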

How the data were processed

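Liver RNA of 2 GALP pools was hybridised against 1 saline pool on 4 two-colour Agilent arrays of 1 slide. The authors ran Feature Extraction on the scans (version 12.0.3.1 per the file headers, 11.0.1.1 per the labels), with background correction and LOWESS between the dyes, and the deposited processed intensity of a channel is its output. Each spot also has a deposited log10 ratio of Cy5 over Cy3 with a deposited p-value, which sets the extracts of a single array against each other. Apart from direction and the spots set to 0, the log10 values of the deposited series table are those of the scanner files.

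Ratios were converted to log2, turned to GALP over control using the dyes in the labels, and averaged over the 2 arrays of a pool, which carry the same extracts. Spots with an outlier mark (232 to 319 of 43379 per array) were left out. The number of arrays limits the precision, and the control pool's own spread enters no test. Testing used limma 3.58.1 (R 4.3.3) (lmFit, then eBayes, testing the 2 pool ratios against 0, with Benjamini-Hochberg adjustment over 41037 probes). Procedures were tested on simulated data. Python 3.11.15, numpy 2.4.6, pandas 2.3.3 and matplotlib 3.10.9 were used.

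The members and lists were chosen with earlier results of these data known. Lists used the brightest probe of each gene. Genes named are the members, and of each pathway list any called gene, the 2 highest and the 2 lowest means among genes with signal and any with opposite pools differing by at least 0.5. Names outside this rule were chosen after the values were seen. Of the 16 member probes, 14 matched RefSeq (GRCm38.p6) by accession. Probe positions are on mm9. Alternatives were normexp (offset 50) with loess, centring, the series table, no outlier filter, other p rules, single dye orientations and pools, all probes of a gene, and for limma a signal filter, a trend and a random block.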

Additional observations from a re-analysis of the deposited data

Results flagged for a closer look

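In some cases the pools lay on opposite sides of the control on both of their arrays. The differences below are greater minus less weight loss pool on the log2 scale, and none was tested, as each side is 1 pool. Of the 16 member probes 1 did so, the brightest Srxn1 probe, with a difference of 0.25. The second Srxn1 probe, at 0.02 and -0.06 against -0.24 and -0.21, did not lie on opposite sides on every array. Of the 107 pathway list genes with signal 5 did so, which are named here for this pattern. They were the glutathione S-transferase Gstp1 (0.46), the cystathionine synthase Cbs (0.43), the peroxiredoxin Prdx4 (0.15), the paraoxonase Pon1 (-0.19) and the glutaredoxin Glrx5 (-0.071). Glrx5 gave only 0.005 and 0.001 on the arrays of the less weight loss pool. The share of all probes with this pattern was not taken, so the counts of 1 and 5 have no background. The median of 5 pancreas markers differed by -4.56 and that of 5 skeletal muscle markers by 2.54.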

How the results depend on the processing

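No member probe was called under any alternative that kept the p-value, and without it 1 was (Gclc). Past limma, 1 member probe (Gclc) passed with normexp and loess (adjusted p = 0.032) and 1 (Gclc) with the 4 arrays in a random block (0.025), where 118 and 106 probes passed in all, beside 0 in the main test. The adjusted p of Gclc over these alternatives ran from 0.025 to 0.53, and the cause was not tested. The random block treats dye-exchanged arrays of the same extracts as 4 observations. The median log2 ratio of the 10 members was -0.037 with GALP in Cy5 only and -0.11 with the mean of all probes of a gene. Leaving out a pool gave a median from -0.098 to -0.064, 8 to 9 probes in the same direction on the arrays that remained and 1 to 3 called list genes (Gsta1 in the greater, and Alas1, Cyp2a5 and Me1 in the less weight loss pool). Both counts ask for fewer arrays, and the matching shares of all probes were not taken, so neither count has a background.

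Of 10 alternatives for single members, 3 repeated the values (array medians set to 0, the series table and no outlier filter). Gclc, Keap1, Hmox1, Txnrd1 and Cat kept their sign in the other 7, and Gclc stayed between -0.52 and -0.48. Nfe2l2, Gclm, Nqo1, Srxn1 and Sod2 changed sign in 1 to 4 of them. Centring on the probes with signal was added after the data were seen. Limma with 1 pool left out could not be fitted, as no residual degree of freedom remains. No paired analysis was possible because the labels give no replicate number that both pools share, and each array already sets GALP against control. The dimmer Srxn1, Gclm and Sod2 probes were above background but had mean signals of 77.4 to 164.6, and the median gap between dye orientations was wider under 500 than above it.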
